A study of Mus musculus with 48 samples.

Results

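The 10 genes described are markers of astrocytes, measured in the accumbens shell, which belongs to the ventral striatum and to the reward circuit. They were named as textbook markers, with earlier results of these data known, and no value entered the choice rule: Gfap, Aqp4, Gja1, Gjb6, S100b, Slc1a2, Slc1a3, Aldh1l1, Aldoc and Sox9. Each mapped to 1 row, so the members are 10 of 37620 genes in the gene table and 100 of 247845 exons in the exon table. RNA was measured by poly(A) RNA-seq, with 1 library per mouse, in laser-microdissected nucleus accumbens shell of 48 mice. All mice were of the outbred heterogeneous stock-collaborative cross (HS-CC) strain and of generation 4 of selection for ethanol preference. The 4 groups were females with high ethanol preference (High F), males with high preference (High M), females with low preference (Low F) and males with low preference (Low M), with 12 mice in each. The sources used here give neither ages nor families, each selection direction was 1 population, and p-values therefore measure the spread between these mice.

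Astrocytes are the glial cells that clear transmitter from the synapse, buffer water and ions, supply metabolites to neurons and couple to one another through gap junctions. The 10 genes stand for these functions. Slc1a2 and Slc1a3 encode the glutamate transporters GLT-1 and GLAST, which take up the glutamate released by cortical and limbic inputs to the accumbens. Gja1 and Gjb6 encode connexin 43 and connexin 30, the channel proteins of astrocyte gap junctions, and Aqp4 encodes the water channel of the endfeet on blood vessels. Gfap encodes the intermediate filament used to stain reactive astrocytes, S100b a calcium-binding protein that is also made by part of the oligodendrocyte lineage, Aldoc the brain form of the glycolytic enzyme aldolase, Aldh1l1 an enzyme of folate metabolism, and Sox9 a transcription factor of the glial lineage.

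The values are read counts that the authors normalised and rounded, called normalised counts here; the totals per library ran from 13579559 to 14561911. All 10 genes were detected in all 48 mice and passed the filter on low values, as did 20 of 20 other astrocyte markers. Markers of the spiny neurons of the striatum were high in both lines, with summed levels of 21884 to 31483 in High and 19731 to 31390 in Low for 7 direct-pathway markers, while 4 markers of cortical pyramidal neurons summed to 1266 to 3771 in High and 1264 to 6199 in Low. In whole tissue, fewer astrocytes and less RNA per astrocyte cannot be told apart. High M replicate 1 had the lowest median correlation with the other libraries (0.967) and the lowest share of its value in last exons (46.8%, against up to 59.6% in Low M replicate 12). The summed level of 15 oligodendrocyte markers ran from 10623 to 27980 in High mice (median 18820.5) and from 15294 to 28063 in Low mice (median 22693), and 14 of the 15 had a log2 difference below 0 between the lines, with a median of -0.21. Of the 15, 9 had an unadjusted p under 0.05, beside 9.07% of all tested genes, and 0 were called. The part of these markers in the results was not tested beyond a fit with their mean as a covariate, given below.

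Levels between genes were compared per kilobase of annotated exon. This length includes exons with few reads, and in most members reads lay mainly in the last exon, so the order depends on the measure. By mean normalised count, Slc1a2 (15071) stood above Aldoc (9497), Slc1a3 (5009) above S100b (1354), and Gja1 (1783) above Aldh1l1 (870). Gfap was the lowest by count as well (155). Per kilobase, Aldoc had the highest level, at 2911 ± 421 normalised counts (SD over all 48 mice). It was followed by Slc1a2 at 1148 ± 147, S100b at 912 ± 372 and Slc1a3 at 587 ± 81.4 per kilobase; the wide spread of S100b reached both of its neighbours. Aldh1l1 (193 ± 21.0), Gja1 (174 ± 28.2) and Gjb6 (150 ± 27.3) formed a middle group in which neighbours lay within their spread, and Aqp4 (73.7 ± 14.4) and Sox9 (66.8 ± 11.6) likewise did not differ beyond theirs. Gfap was the lowest, at 36.8 ± 15.7 per kilobase. The staining marker of astrocytes was the least abundant of the 10 messages per length in the shell, and Sox9, next above it, exceeded it by more than the SD of either gene.

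The positions on mm9 are the lowest coordinate of the first listed exon of each gene, in transcript order, as the exon table gives it. The transporter genes lie apart, Slc1a2 (ENSMUSG00000005089) on chromosome 2, plus strand, at 102498816 and Slc1a3 (ENSMUSG00000005360) on chromosome 15, minus strand, at 8660339. The connexin genes are Gja1 (ENSMUSG00000050953) on chromosome 10, plus strand, at 56097106 and Gjb6 (ENSMUSG00000040055) on chromosome 14, minus strand, at 57752023, and the water channel gene Aqp4 (ENSMUSG00000024411) on chromosome 18, minus strand, at 15562109. The structural and calcium-binding markers are Gfap (ENSMUSG00000020932) on chromosome 11, minus strand, at 102762081 and S100b (ENSMUSG00000033208) on chromosome 10, plus strand, at 75716598. The metabolic genes are Aldoc (ENSMUSG00000017390) on chromosome 11, plus strand, at 78136470 and Aldh1l1 (ENSMUSG00000030088) on chromosome 6, plus strand, at 90436421, and the transcription factor gene is Sox9 (ENSMUSG00000000567) on chromosome 11, plus strand, at 112643538. Gfap, Aldoc and Sox9 thus share chromosome 11, and Gja1 and S100b chromosome 10.

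Values were concentrated in the last listed exons, which in members such as Slc1a2 (9322 bases in the annotation) are also the longest. The last listed exon held 99.4% of the value of Gja1, 97.6% of Aqp4, 97.6% of Slc1a2, 96.8% of Sox9, 93.3% of Gjb6, 88.1% of Slc1a3 and 86.2% of S100b. It held 59.7% of Gfap and 43.7% of Aldoc. Aldh1l1, with 25 listed exons, had 18.5% in the last and 17.3% in the one before it. For most members a level is mainly that of the terminal exon, and upstream exons had few reads. The first exon of Aqp4 averaged 0.167 normalised counts over the 48 mice, while its last, starting at position 15547903 of mm9, averaged 448.

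**Figure D1:**
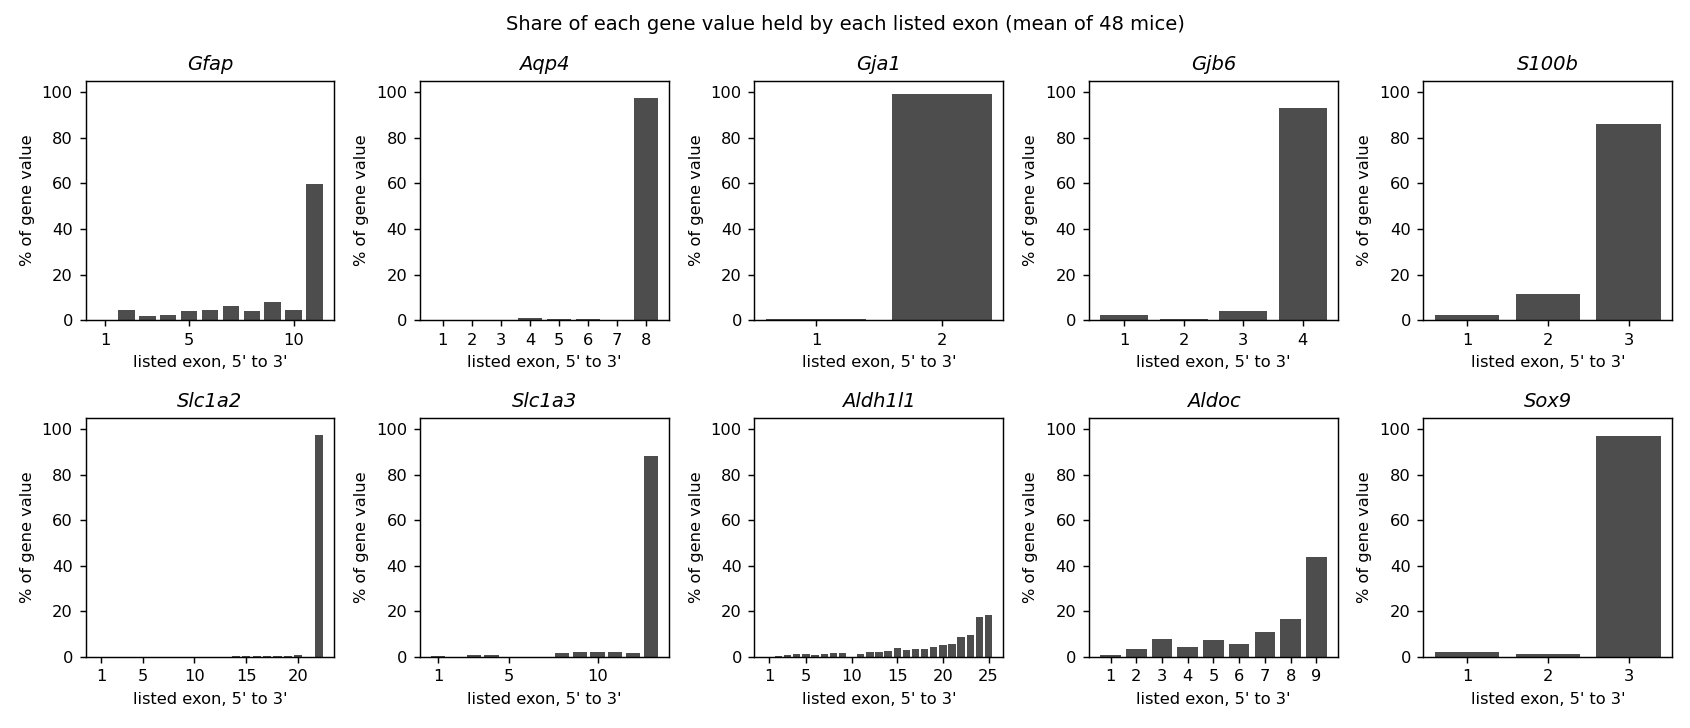
Share of each gene's value held by each exon of the exon table, in percent of the gene's mean normalised count over 48 mice, with exons ordered from 5′ to 3′. The last exon holds 86.2% or more in 7 genes, 59.7% in Gfap, 43.7% in Aldoc and 18.5% in Aldh1l1.

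To show what is known to lie upstream of these genes, promoter windows of 300 bases, from 250 bases before to 50 bases after the annotated start, were taken from RefSeq on build GRCm38.p6, which is not the build of the count tables. Windows were found for 8 of the 10 members; none was used for Aqp4 and Sox9. The windows of Slc1a2, Slc1a3 and Gja1 are shown because these genes varied together most closely between mice, and that of Gfap because it varied most. Capitals mark matches, on either strand, to 6 motifs, whose matches do not overlap in the printed windows: the STAT element (TTCNNNGAA), the single NFI site (TTGGCA), the Sp1-type GC box (GGGCGG), the TATA box (TATAAA), the SOX core (ACAAAG) and its variant (ACAATG).
Slc1a2: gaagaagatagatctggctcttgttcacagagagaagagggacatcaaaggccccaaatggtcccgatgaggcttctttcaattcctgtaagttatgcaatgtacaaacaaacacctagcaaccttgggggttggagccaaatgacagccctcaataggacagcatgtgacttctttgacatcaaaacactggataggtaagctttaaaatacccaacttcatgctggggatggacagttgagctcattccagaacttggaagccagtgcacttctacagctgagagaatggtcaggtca
Slc1a3: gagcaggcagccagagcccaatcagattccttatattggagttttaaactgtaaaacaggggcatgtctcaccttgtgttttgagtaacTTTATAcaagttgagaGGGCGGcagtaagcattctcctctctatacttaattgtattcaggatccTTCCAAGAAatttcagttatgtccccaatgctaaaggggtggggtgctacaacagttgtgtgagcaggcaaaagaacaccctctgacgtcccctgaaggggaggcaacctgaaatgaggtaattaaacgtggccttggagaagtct
Gja1: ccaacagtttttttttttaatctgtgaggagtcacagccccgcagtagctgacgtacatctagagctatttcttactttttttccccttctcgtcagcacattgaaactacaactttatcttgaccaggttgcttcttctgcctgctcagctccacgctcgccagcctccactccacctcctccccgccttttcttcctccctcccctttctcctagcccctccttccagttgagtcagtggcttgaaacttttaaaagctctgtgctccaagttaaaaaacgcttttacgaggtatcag
Gfap: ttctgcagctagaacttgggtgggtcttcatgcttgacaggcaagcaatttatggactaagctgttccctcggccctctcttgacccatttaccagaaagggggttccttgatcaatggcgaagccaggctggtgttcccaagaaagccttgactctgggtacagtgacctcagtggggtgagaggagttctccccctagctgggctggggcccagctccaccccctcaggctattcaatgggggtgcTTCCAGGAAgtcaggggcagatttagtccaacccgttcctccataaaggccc
The windows lie at chr2:102706188-102706487 on the plus strand (Slc1a2), chr15:8710758-8711057 on the minus strand (Slc1a3), chr10:56377050-56377349 on the plus strand (Gja1) and chr11:102897151-102897450 on the minus strand (Gfap). STAT3 is a known activator of Gfap, and SOX9 and the NFI factors are known regulators of astrocyte genes. A gene with more than 1 window, here Aldoc, was counted once. The STAT element matched in the windows of 3 of 8 members (Gfap, Slc1a3 and Aldoc), against 8.30% of 32851 windows of the same length. The background is a share of single windows, and Aldoc had 2, with its STAT matches in the second, which raises its chance of a match; Gfap and Slc1a3 had 1 window each. The GC box matched in 3 of 8 (Slc1a3, Aldh1l1 and Aldoc), against 35.7% of all windows, and the TATA box in 1 (Slc1a3), against 13.6%. The NFI site matched in 2 (S100b and Aldoc), against 14.1%, and the SOX cores in 0 of 8, against 18.7% and 12.6%. Of the 3 genes that varied together, Slc1a3 held 3 matches and Slc1a2 and Gja1 none in these windows. The Slc1a2 window lies at an alternative start, listed exon 8 of the exon table, which averaged only 0.0208 normalised counts. Listed exon 1 of Slc1a2 averaged 14.1, and the sequence before it was not searched. The lack of matches for Slc1a2, also in the counts out of 8, thus concerns a start with almost no reads.

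The first comparison asked whether the astrocyte markers differed between the lines. No member passed the test, although all 10 had a point estimate above 0. The largest was that of S100b, at 1.20-fold (95% interval 0.991 to 1.45), and the smallest that of Aldh1l1, at 1.00-fold (0.942 to 1.07). The median log2 difference of the 10 was 0.10, against -0.0028 for all 15350 tested genes, of which 48.5% lay above 0; the members varied together between mice, so their directions are not independent. By limma with Benjamini-Hochberg adjustment over all tested genes, 0 of 10 members were called at an adjusted p under 0.05, beside 0.28% of all genes. At an unadjusted p under 0.05 there was 1 member of 10, Gjb6, beside 9.07% of all genes.

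Among the glutamate transporters, Slc1a3 had its lowest, median and highest values at 3771, 5331.5 and 6494 normalised counts in High mice, against 3834, 4873 and 6892 in Low mice. The ranges overlapped almost wholly, with 19 of the 24 High values over the median of Low. The log2 difference was 0.11 ± 0.056 (SE, adjusted p = 0.583 by limma). Slc1a2 ran from 11720 through a median of 15051 to 20281 in High mice and from 12042 through 14982.5 to 17398 in Low mice. Its medians were nearly equal, with 12 of the 24 High values over the median of Low. The difference was 0.07 ± 0.053 on the log2 scale (adjusted p = 0.734 by limma).

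Of the channel genes, Gjb6 had 424 ± 81.3 normalised counts in High mice (SD, n = 24) and 377 ± 56.1 in Low mice (n = 24). Values ran from 287 through a median of 416 to 595 in High and from 295 through 383.5 to 495 in Low, with 18 of the 24 High values over the median of Low. The log2 difference was 0.16 ± 0.070 (unadjusted p = 0.0294, adjusted p = 0.463 by limma). Gja1 averaged 1853 ± 316 in High and 1713 ± 246 in Low, with ranges of 1197 to 2646 in High and 1253 to 2205 in Low. The mouse with the most Gja1 message, High M replicate 12, also had the most Slc1a2 of all mice, and the one with the least, High M replicate 7, also had the least Slc1a3. For Gja1 the log2 difference was 0.11 ± 0.065 (adjusted p = 0.661 by limma). Aqp4 averaged 480 ± 93.4 in High and 438 ± 82.4 in Low, a difference of 0.13 ± 0.076 (adjusted p = 0.647 by limma), and its ranges, 324 to 623 in High and 310 to 641 in Low, overlapped throughout.

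S100b and Gfap were the members with the widest ranges. S100b ran from 871 through a median of 1129 to 3488 in High mice and from 726 through 1079 to 2115 in Low mice. The medians differed less than the means, at 1510 ± 676 in High and 1197 ± 340 in Low, and the 2 highest mice were High females, High F replicate 8 at 3488 and the next at 2333. Its log2 difference was 0.26 ± 0.14 (adjusted p = 0.574 by limma), and 14 of the 24 High values exceeded the median of Low. Gfap ran from 79 through 157 to 295 in High mice and from 41 through 127 to 378 in Low mice. Both the lowest and the highest Gfap values of the study were in Low mice, and the means were 156 ± 50.6 in High and 155 ± 80.1 in Low. The log2 difference was 0.10 ± 0.16 (adjusted p = 0.910 by limma).

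Aldoc, Sox9 and Aldh1l1 had the 3 smallest estimates. Aldoc averaged 9678 ± 1596 in High and 9316 ± 1113 in Low (0.05 ± 0.060 on the log2 scale, adjusted p = 0.880 by limma). Sox9 averaged 283 ± 47.9 in High and 270 ± 47.8 in Low (0.07 ± 0.073, adjusted p = 0.847 by limma). Aldh1l1 averaged 873 ± 108 in High and 867 ± 81.8 in Low, a log2 difference of 0.01 ± 0.045 (adjusted p = 0.986 by limma). Its 95% interval, 0.942-fold to 1.07-fold, was the narrowest of the 10, and that of Gfap, 0.854-fold to 1.34-fold, the widest on the log scale. With the mean level of the oligodendrocyte markers as a covariate, 0 members were called and 6 of 10 had an unadjusted p under 0.05. The share of all tested genes under that threshold was not computed for this fit, and the 9.07% given above belongs to the main fit. More of all genes were called with this covariate than in the main fit, as given below. In that fit the log2 difference was 0.40 for S100b (adjusted p = 0.156), 0.20 for Gfap (adjusted p = 0.606) and 0.12 for Slc1a2 (adjusted p = 0.335).

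**Figure D2:**
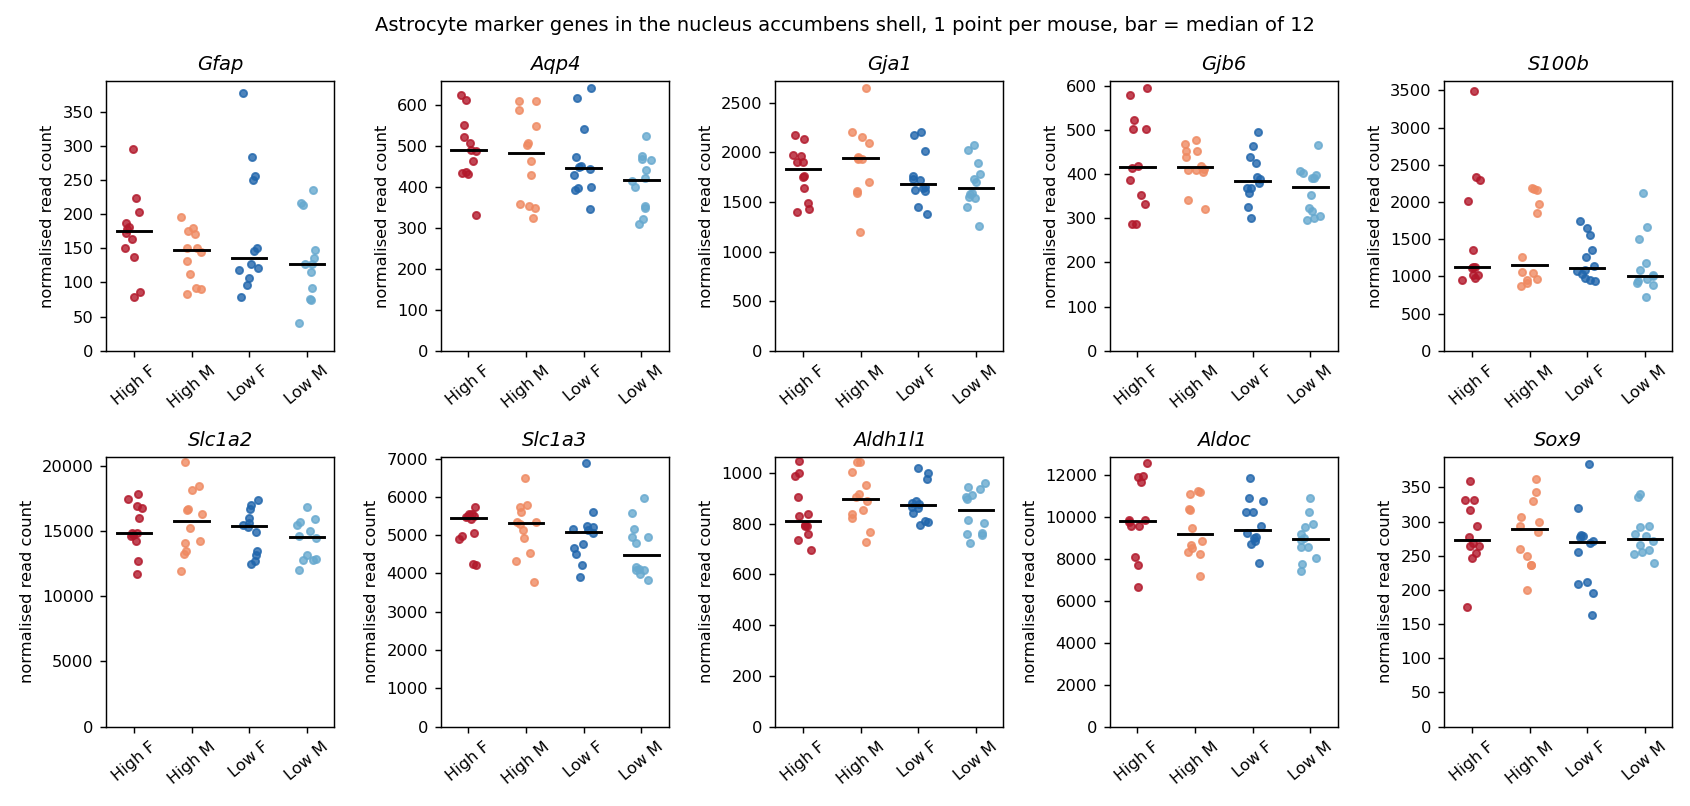
Normalised read count of each astrocyte marker gene (vertical axes, from 0) in each of the 4 groups, with 1 point per mouse and a bar at the median of 12. The groups overlap for all 10 genes; S100b reaches 3488 in 1 High F mouse and Gfap 378 in 1 Low F mouse.

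Within females, 9 of 10 members had an estimate above 0 for High F minus Low F, with a median log2 difference of 0.04. By limma, 0 of 10 were called, beside 0.0261% of all genes, and 0 had an unadjusted p under 0.05, beside 4.68%. Within males, all 10 lay above 0, with a median of 0.16 for High M minus Low M; 0 were called, beside 0% of all genes, and 2 had an unadjusted p under 0.05, beside 6.93%. These were Gjb6, at 417 ± 46.8 in High M against 362 ± 54.4 in Low M (log2 difference 0.21 ± 0.099, adjusted p = 0.715 by limma), and Slc1a3, at 5187 ± 728 in High M against 4642 ± 694 in Low M (0.16 ± 0.079, adjusted p = 0.715). The point estimate was larger in males than in females for 9 of 10 genes, Sox9 being the exception. The test of that difference, the line by gender interaction, called 0 of 10, beside 0% of all genes, and 0 at an unadjusted p under 0.05, beside 2.4%. The smallest interaction p was that of Aldh1l1, whose estimate was -0.07 in females and 0.08 in males (interaction -0.15 ± 0.091, adjusted p = 1.00 by limma).

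Set out by the 4 groups, the medians followed several orders. Slc1a3 had medians of 5445.5 in High F, 5304.5 in High M, 5093 in Low F and 4488.5 in Low M, so the Low males stood below the other groups, and the lowest value of any group, 3771, was nevertheless in High M. Aqp4 had the same order, at 488.5 in High F, 482 in High M, 445.5 in Low F and 417.5 in Low M. Gja1 was highest in High males, with medians of 1829.5 in High F, 1939 in High M, 1681.5 in Low F and 1644 in Low M. Aldh1l1 was lowest in High females, at 812 in High F, 897 in High M, 872.5 in Low F and 855 in Low M. Gjb6 had nearly equal medians in both High groups, 416 in High F and 415 in High M, but a wider range in High F (287 to 595) than in High M (321 to 476); its medians were 383.5 in Low F and 371 in Low M. Sox9 had medians of 273.5 in High F, 289 in High M, 269.5 in Low F and 275 in Low M. In each of the 10 genes the ranges of all 4 groups of 12 overlapped.

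**Figure D3:**
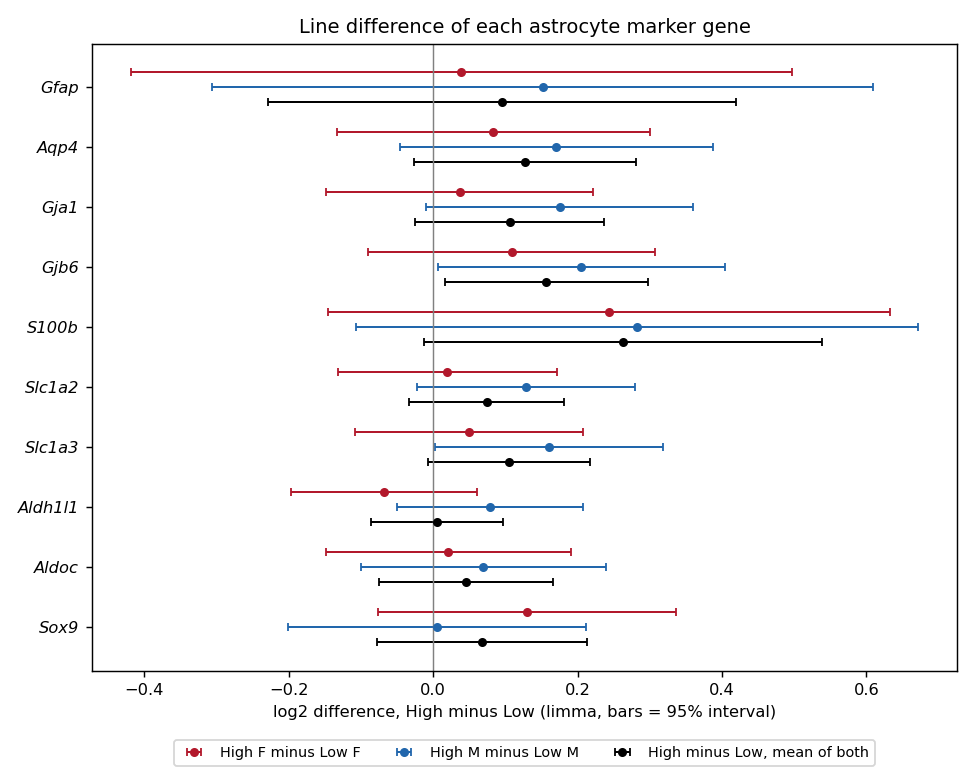
Log2 difference of each astrocyte marker gene (horizontal axis), High F minus Low F, High M minus Low M, and the mean of both, with 95% intervals from limma. All 10 means lie above 0, and the interval of the mean excludes 0 for Gjb6, which was not called after adjustment over all genes.

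Between the genders, 7 of 10 members had an estimate above 0 for F minus M, and 0 were called, beside 0.0782% of all genes. At an unadjusted p under 0.05 there were 0, beside 4.21%. Gfap had the largest estimate, at 174 ± 75.8 normalised counts in F mice and 137 ± 50.2 in M mice (n = 24 each). Its values ran from 79 through a median of 157 to 378 in F and from 41 through 133.5 to 236 in M, so the 2 ranges overlapped over most of their length. The log2 difference was 0.31 ± 0.16 (unadjusted p = 0.0589, adjusted p = 0.982 by limma), and 16 of 24 F mice lay above the M median. Aqp4 followed with 477 ± 85.3 in F and 441 ± 92.0 in M (0.12 ± 0.076, adjusted p = 0.982). The members below 0 were Sox9, Gja1 and Aldh1l1, by at most 0.07.

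The spread between mice differed widely among the genes. Over all 48 mice the coefficient of variation was 42.7% for Gfap and 40.8% for S100b, and between 10.9% (Aldh1l1) and 19.5% (Aqp4) for the other 8. The highest mouse had 9.22 times the Gfap of the lowest, and 4.8 times the S100b, but 1.51 times the Aldh1l1. Gfap was more even in High mice, with a coefficient of 32.5% against 51.7% in Low mice, and S100b less even, with 44.8% in High against 28.4% in Low. In a limma test on absolute deviations from the group median, 0 of 10 members differed between the lines at an adjusted p under 0.05, beside 0.0586% of all genes. At an unadjusted p under 0.05 there was 1, S100b, beside 3.97% of genes: its mean deviation was 0.47 in High and 0.28 in Low on the log2 scale (difference 0.20 ± 0.094, adjusted p = 0.998). For Gfap the mean deviation was 0.33 in High and 0.52 in Low (difference -0.19 ± 0.11, adjusted p = 0.998).

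The next question was whether the markers varied together from mouse to mouse. Log2 values with the group means removed were correlated over the 48 mice, with permutation of mice within groups. Of 45 pairs, 42 were positive, with a median Pearson r of 0.27, and 16 passed a Benjamini-Hochberg adjusted permutation p under 0.05, all of them positive; 16 passed by Spearman's rho. An r above 0.5 was found for 7 of the 45 pairs, beside 4.23% of all pairs of tested genes, whose median r was 0. The share of all pairs that would pass the permutation test was not computed. Within groups the median r of the member pairs was 0.36 in High F and 0.45 in High M mice. It was 0.21 in Low F and 0.23 in Low M mice, and the difference between the groups was not tested.

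A block of 4 genes, Gja1, Slc1a2, Slc1a3 and Aqp4, held the closest pairs. Their 6 correlations lay between 0.71 and 0.82, each with a permutation p of 1e-05, the smallest that 100000 resamples can give. The closest was that of Gja1 with Slc1a2 (r = 0.82, rho = 0.82, permutation p = 1e-05 for both, adjusted p = 7.5e-05), which was 0.77 without the 2 mice farthest from the median of Gja1. It held within each group, at 0.85 in High F, 0.89 in High M, 0.80 in Low F and 0.68 in Low M. Aqp4 with Slc1a2 gave r = 0.81 and rho = 0.79 (permutation p = 1e-05 for both, adjusted p = 7.5e-05) and 0.77 without the 2 farthest mice. In this block the same mice were extreme for several genes: High M replicate 12 was the highest High M mouse for all 4, and High M replicate 7 the lowest.

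Gfap was attached to the block, with r = 0.52 and rho = 0.55 to Gja1 (permutation p = 0.00012 and 0.00011, adjusted p = 0.000771, r without the 2 farthest mice 0.51). It also varied with S100b, at r = 0.41 and rho = 0.48 (permutation p = 0.00238 and 0.00042, adjusted p = 0.0107, r without the 2 farthest mice 0.46), although this r was 0.02 in Low F against 0.74 in High M. Sox9 passed with 3 members: Gja1 (r = 0.42, rho = 0.45, adjusted permutation p = 0.0155), Aqp4 (r = 0.40, rho = 0.42, adjusted permutation p = 0.0227) and Slc1a3 (r = 0.39, rho = 0.36, adjusted permutation p = 0.0259). The connexins Gjb6 and Gja1 passed as a pair (r = 0.39, rho = 0.42, adjusted permutation p = 0.0227), although r was -0.06 in High M against 0.64 in High F. Aldh1l1 passed with Slc1a2 (r = 0.37, rho = 0.39, adjusted permutation p = 0.0425), with 0.86 in High M and -0.24 in High F. Aldoc passed with no other member. The 3 pairs below 0, down to -0.05, were Gjb6 with Sox9, Aldoc with Sox9 and Aldh1l1 with Aldoc.

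The block was part of a pattern shared by many other genes. Slc1a2 had an r above 0.5 with 13.5% of all other tested genes, Gja1 with 12.5%, Slc1a3 with 10.4% and Aqp4 with 7.47%, while each of the other 6 members had such an r with 0.723% or less. The first principal component of the residuals of all tested genes, which included the members, held 20.0% of their variance and correlated with Gja1 at 0.87, Slc1a2 at 0.84, Slc1a3 at 0.78 and Aqp4 at 0.68, given as a description. With this component removed, an alternative added after the data were seen, 35 of the 45 pairs stayed positive, the median r was 0.12 and 2 pairs passed in place of 16. These were Aqp4 with Slc1a2 (r = 0.61, adjusted permutation p = 0.0009) and Slc1a2 with Aldoc (r = 0.47, adjusted permutation p = 0.0245). Slc1a2 with Aldoc was not among the 16 (r = 0.34, adjusted permutation p = 0.0643 before the removal). The other pairs of the block lay between 0.29 and 0.43.

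**Figure D4:**
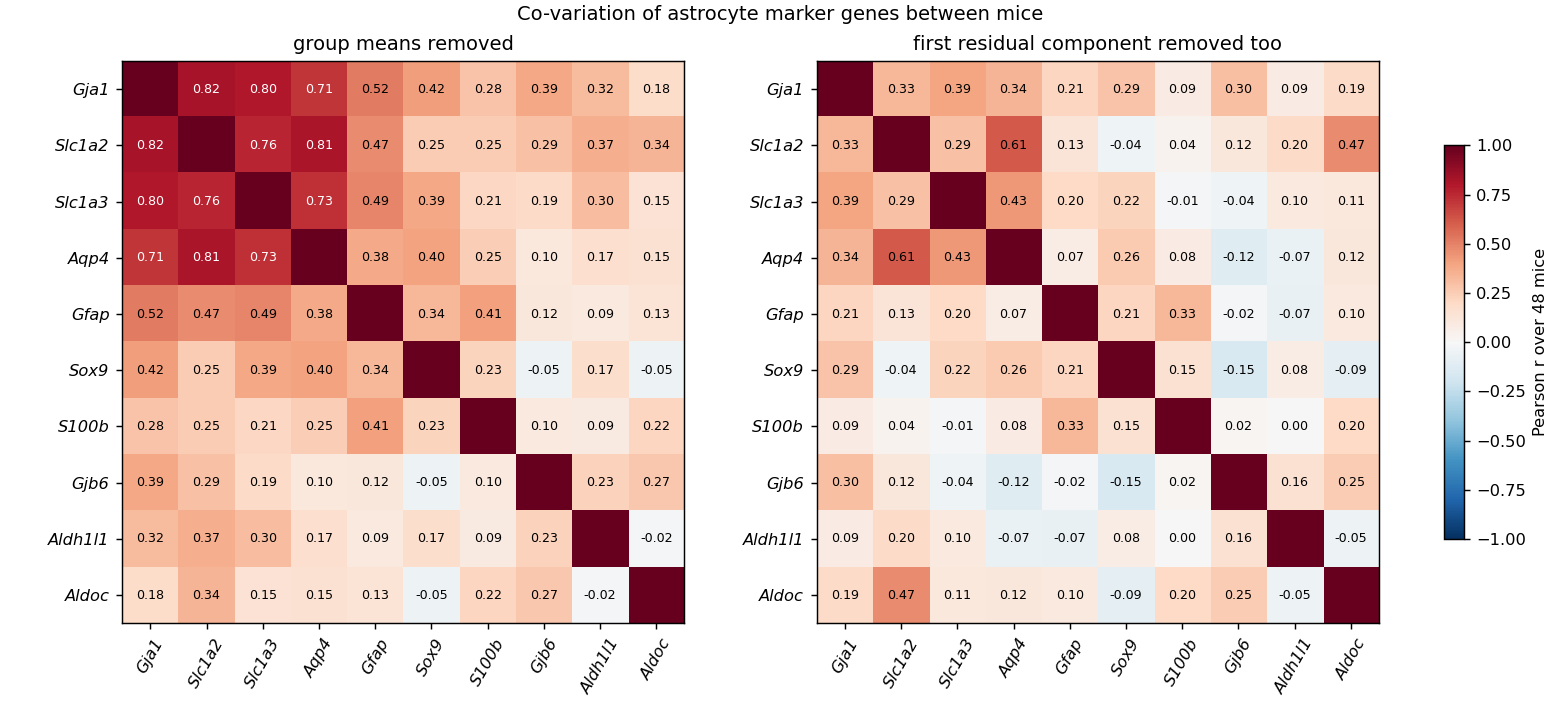
Pearson correlation of log2 normalised counts between the 10 astrocyte marker genes over 48 mice, with group means removed (left) and with the first principal component of all tested genes removed as well (right). Gja1, Slc1a2, Slc1a3 and Aqp4 correlate at 0.71 to 0.82 on the left and at 0.29 to 0.61 on the right.

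Genes among the 5 most like each member, by r over the 48 mice, are named without a p. Tmem47 (r = 0.89), Oat, Dazap2, S1pr1 and Stag2 were nearest to Gja1; Oat encodes ornithine aminotransferase and S1pr1 a receptor for sphingosine-1-phosphate. Ywhab (r = 0.86), Atxn10, S1pr1, Rab18 and Slc39a12 were nearest to Slc1a2, and Slc39a12, a zinc transporter, was on the list of other astrocyte markers. Oat (r = 0.84), Rcn2, Gja1, Ctnnb1 and Stag2 were nearest to Slc1a3. Slc1a2 (r = 0.81), Grm3, Ptn, Rab14 and Fam171b were nearest to Aqp4; Grm3 is a metabotropic glutamate receptor that astrocytes carry. Gfap was closest to Sox4 (r = 0.66), Plekhb1, Anxa5, Ddah1 and Saraf. Sox9 was closest to Sox2 (r = 0.72), its relative in neural stem cells and glia, then to Dcx, Jkamp, Ube3a and Zfp51. Gjb6 was closest to Usp3 (r = 0.67), Fam213a, Tsc22d3, Sult1a1 and Mrps35; Tsc22d3 is a known target of glucocorticoids.

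The genes nearest to S100b included Anln (r = 0.64), Tfam, Ccar1 and Tkt, of which Tfam and Ccar1 lie on its own chromosome, 10, at distances of 5.03 and 13.5 Mb on mm9. Aldoc was closest to Vtn (r = 0.64), Tmem199, Gsap, Utp6 and Gas2l2, and 4 of these lie on its chromosome, 11, with Vtn at 0.176 and Tmem199 at 0.184 Mb. Of the 100 genes nearest to Aldoc, 20 started within 20 Mb of it, against 3.4% of all tested genes; of those nearest to S100b 14 did, against 2.36%. For the other 8 members 1 to 3 of the nearest 100 did so. These counts were made after the nearest genes were seen and are a description. Aldh1l1 was closest to Hdhd3 (r = 0.60), Cyp2j9, Gm15756, 4930473A02Rik and Sult4a1. Gm15756 is annotated antisense to Aldh1l1 itself, and since the sources used here give no strand setting for the counting, reads from the 499 bases where their exons overlap cannot be told apart. Gm15756 averaged 86.2 normalised counts, against 870 for Aldh1l1. The same holds for 189 bases of exon that Slc1a2 shares with the antisense Gm13872, which averaged 33.6. S100b and Dip2a, on the other strand, overlap over 1731 bases of their gene spans but over 0 bases of annotated exon.

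Each member was then set against 1 marker gene of each of 10 other cell types, 100 pairs in all, of which 5 passed by r and 7 by rho. The share of all tested genes that would pass with each member was not computed. Gja1 had an r above 0.5 with 12.5% of all other tested genes, Slc1a2 with 13.5%, Slc1a3 with 10.4% and S100b with 0.202%. The first principal component was not removed for these pairs. Whether a pair is particular to its cell type was not tested. S100b varied with Mbp, which encodes myelin basic protein of oligodendrocytes (r = 0.52, rho = 0.53, permutation p = 0.00062 and 0.0005, adjusted p = 0.0207, r without the 2 farthest mice 0.45). Within groups r was 0.82 in High F, 0.57 in High M and 0.42 in Low M, but -0.50 in Low F, and this difference between groups was not tested. Between the lines the point estimates had opposite signs: Mbp averaged 6579 ± 1754 in High and 7458 ± 1410 in Low (log2 difference -0.21 ± 0.098, adjusted p = 0.504 by limma), while S100b was at 1510 in High and 1197 in Low. Gja1 and Slc1a2 varied with Foxj1, a transcription factor of ciliated ependymal cells (r = 0.53, rho = 0.58, permutation p = 0.00018 and 7e-05, adjusted p = 0.0180, r without the 2 farthest 0.62 for Gja1; r = 0.48, rho = 0.50, permutation p = 0.00058 and 0.0004, adjusted p = 0.0207, r without the 2 farthest 0.45 for Slc1a2). Slc1a2 varied with Drd1, the dopamine receptor of direct-pathway neurons (r = 0.46, rho = 0.40, permutation p = 0.00179 and 0.00645, adjusted p = 0.0372 for r, r without the 2 farthest 0.47), and this pair did not pass by rho (adjusted permutation p = 0.0645). Slc1a3 varied with Pdgfra of oligodendrocyte precursors (r = 0.45, rho = 0.49, permutation p = 0.00186 and 0.00064, adjusted p = 0.0372, r without the 2 farthest 0.39). Without High M replicate 1, 3 of the 100 pairs passed, and r was 0.43 for Slc1a2 with Drd1 and 0.43 for Slc1a3 with Pdgfra. The other 4 pairs passed by rho as well, and 3 pairs passed by rho alone. These were Gja1 and Slc1a2 with Cx3cr1 of microglia (rho = 0.43 and 0.45, adjusted permutation p = 0.0434 for both) and Slc1a2 with Pdgfra (rho = 0.48, adjusted permutation p = 0.0206); by r their adjusted permutation p was 0.140, 0.114 and 0.0523. No pair with Cldn5, Dcn, Drd2, Slc17a7 or Sst passed by either measure, and with Slc17a7, a marker of cortical pyramidal neurons, 8 of 10 members had an r below 0.

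**Figure D5:**
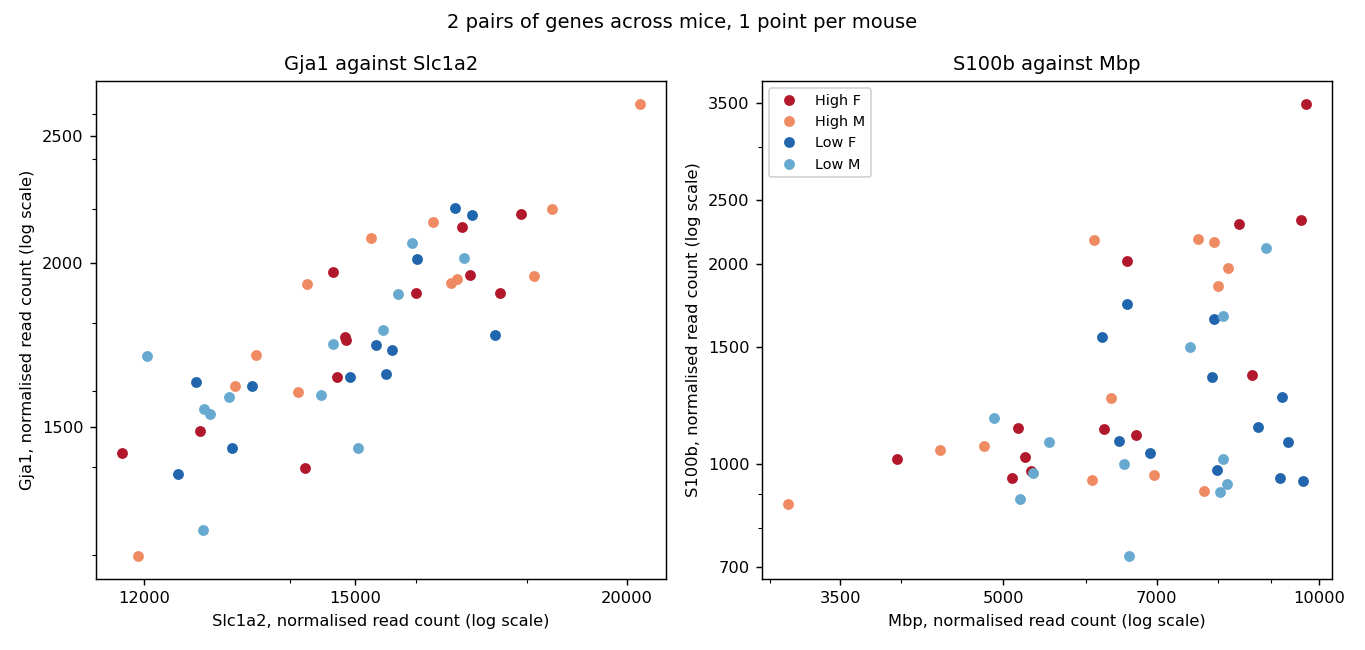
Normalised read counts on log axes, 1 point per mouse, for Gja1 against Slc1a2 (left) and S100b against Mbp (right), coloured by group. Gja1 and Slc1a2 follow each other in all groups (r = 0.68 to 0.89), whereas for S100b and Mbp r is 0.82 in High F and -0.50 in Low F.

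Among exons, 80 of the 100 listed passed the filter. For High minus Low 0 of the 80 were called, beside 0.00875% of 148532 exons, and 5 had an unadjusted p under 0.05, beside 4.91%. All 5 were higher in High. Their genes also had estimates above 0, and 2 of the 5 lay in Slc1a2, so these directions are not independent. The smallest p was that of exon 20 of Slc1a2, starting at 102617584. This exon is an alternative 3′ end: it is the last exon of 3 annotated transcripts, with up to 680 bases, of which 265 are coding, while other transcripts go on from it to exon 22. It stood at 116 ± 17.4 in High against 101 ± 20.7 in Low (log2 difference 0.22 ± 0.078, adjusted p = 0.717 by limma). The first exon of Slc1a2, at 102498816, stood at 15.8 ± 5.66 in High against 12.3 ± 6.07 in Low (0.37 ± 0.15, adjusted p = 0.913), and its last, at 102621620, at 15102 ± 2109 in High against 14314 ± 1594 in Low (0.07 ± 0.052, adjusted p = 1.00). The others were the last exon of Slc1a3, at 8584124 (4575 ± 528 in High, 4250 ± 586 in Low), exon 2 of Gjb6, at 57750824 (2.54 ± 1.79 in High, 1.58 ± 1.53 in Low), and the last exon of S100b, at 75722673 (1311 ± 626 in High, 1022 ± 303 in Low).

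Gfap has an alternative last exon, used by the isoform known as GFAP-delta, whose tail differs from that of the main form. The exon table lists an exon of 1355 bases at 102751480 that belongs to 1 annotated transcript other than the main one and lies before the last 2 exons of the main form, and it averaged 12.8 ± 5.73 normalised counts in High mice and 11.7 ± 7.59 in Low mice. The last exon of the main form, at 102748650, averaged 95.6 ± 33.7 in High and 89.5 ± 46.9 in Low. Neither Gfap exon passed the test (log2 difference 0.14 ± 0.27 and 0.17 ± 0.16, adjusted p = 1.00 for both by limma). For Aqp4, listed exons 1 and 3 are alternative first exons; exon 3, at 15561168, averaged 0.208 ± 0.415 in High and 0.0833 ± 0.282 in Low, and neither passed the filter on low values. In the test of exon usage, which asks whether an exon differs relative to the other exons of its gene, 0 of 10 members were called between the lines, beside 0.51% of 14702 genes, and 0 between the genders, beside 0.17%. At an unadjusted p under 0.05 there were 0 in both, beside 5.32% and 3.96%. The smallest p between the lines was that of Slc1a2 (Simes p = 0.182, adjusted p = 0.997 by limma diffSplice). Its exons with the smallest unadjusted diffSplice p were exon 13 (p = 0.0175) and exon 21 (p = 0.0330). Both were lower in High relative to the other exons. Exon 13 averaged 12.5 in High and 14.5 in Low mice, and exon 21 averaged 1.04 in High and 1.63 in Low mice. For exon 20 the unadjusted diffSplice p was 0.450. With exons filtered at 1 ppm in 12 libraries, 11 exons of Slc1a2 were tested in place of 12. The Simes p of Slc1a2 was then 0.0366 (adjusted p = 0.997), and without High M replicate 1 it was 0.0835.

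Genes that share functions with the members were described by lists, beside the 0.28% of all genes called and 9.07% with an unadjusted p under 0.05 between the lines. Of 20 other astrocyte markers, 13 lay above 0, with a median log2 difference of 0.02, 0 were called, and an unadjusted p under 0.05 was found for 2. These were Itih3, at 877 ± 190 in High and 992 ± 181 in Low (adjusted p = 0.435 by limma), and Pla2g7, at 1653 ± 320 in High and 1478 ± 286 in Low (adjusted p = 0.530 by limma). The other markers thus lay on both sides of 0, with a smaller median than the 10 members (0.10).

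Around the glutamate transporters, 5 of 10 tested genes of glutamate and glutamine handling lay above 0 and 0 were called. The smallest p was that of Slc38a5, a glutamine transporter, at 64.1 ± 23.0 in High and 79.5 ± 16.3 in Low (log2 difference -0.32 ± 0.096, adjusted p = 0.178 by limma). Of 7 genes of GABA and glycine uptake, 4 lay above 0 and 0 were called, led by the transporter gene Slc6a13 at 54.3 ± 15.4 in High and 43.5 ± 12.6 in Low (adjusted p = 0.299 by limma); Slc6a13 is also a leptomeningeal marker. Among 8 other connexins and gap junction partners, 2 lay above 0 and 0 were called. The endfoot dystrophin complex, which anchors the water channel, had 4 of 9 genes above 0 and 0 called, and the genes of potassium and ion homeostasis 6 of 10 and 0 called.

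Beside Gfap, 5 of 6 genes of intermediate filaments and cytoskeleton lay above 0, with 0 called. Vim, which encodes the vimentin that co-assembles with the Gfap protein, had 510 ± 88.3 in High and 439 ± 103 in Low (log2 difference 0.23 ± 0.079, adjusted p = 0.283 by limma). Of 32 genes of reactive astrocytes 19 were tested; 18 of these lay above 0, with a median of 0.10, 0 were called, while 3 reached an unadjusted p under 0.05. Cp, which encodes ceruloplasmin, had 106 ± 27.5 in High and 86.4 ± 24.7 in Low (log2 difference 0.28 ± 0.11, adjusted p = 0.347 by limma). The tested list was low throughout, its 19 genes summing to 1099 to 2114 in High mice and 978 to 2081 in Low mice. Above 0 also lay 7 of 8 leptomeningeal markers (median 0.10) and 6 of 7 ependymal and choroid plexus markers (median 0.09). Of microglial markers 5 of 13 did (median -0.06), and of endothelial and mural markers 5 of 14 (median -0.01). Whether the reactive genes vary together, or their direction is particular to astrocytes, was not tested. Of 6 tested relatives of S100b in the S100 family, 5 lay above 0 and 0 were called, and of 3 metallothioneins 2 lay above 0 and 0 were called, led by Mt1 at 3734 ± 1049 in High and 3034 ± 902 in Low (adjusted p = 0.408 by limma).

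Around Aldoc, 12 of 22 genes of glycolysis and lactate lay above 0 and 0 were called. Ldhb, a subunit of lactate dehydrogenase, had 8431 ± 946 in High and 7603 ± 909 in Low (log2 difference 0.15 ± 0.048, adjusted p = 0.224 by limma), and Pygm, a glycogen phosphorylase, 276 ± 50.3 in High and 326 ± 79.2 in Low (-0.21 ± 0.092, adjusted p = 0.436 by limma). Around Aldh1l1, 6 of 11 genes of one-carbon and serine metabolism lay above 0, and 8 of 13 tested genes of lipid and sterol supply did, with 0 called in both. Around Sox9, 12 of 18 gliogenic transcription factors lay above 0 and 0 were called. Of 13 genes of astrocyte calcium and purine signalling 7 lay above 0, 0 were called, while 3 reached an unadjusted p under 0.05, led by P2ry14, a receptor for UDP-sugars, at 38.6 ± 6.23 in High and 32.8 ± 9.50 in Low (adjusted p = 0.262 by limma). The median log2 difference of these 5 lists lay between 0.00 and 0.07.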

How the data were processed

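Tissue of 48 mice was laser-microdissected and poly(A) libraries were made with the TruSeq protocol, per the labels' protocols. The submitters' processing notes name CASAVA, FastQC, STAR 2.4.0, R 3.0.2, edgeR 3.4.2 and the mouse build mm9; the read counter, its strand setting and the normalisation are not given in the sources used here. Gene and exon values are deposited as normalised read counts that the authors rounded to whole numbers, a score here and not raw counts, so no count model was used. The unit of low values, ppm, is a share of the mean library total, with 1 ppm equal to 14.0554 deposited units.

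Genes with at least 1 ppm in 12 libraries (15350 of 37620) were tested on log2(value + 0.5 ppm) with limma 3.58.1 in R 4.3.3 (with the package data.table, version 1.17.8), with a mean per group, 4 groups in 1 fit and Benjamini-Hochberg adjustment over all tested genes. Fold changes on this scale understate those of low genes. Differences averaged over genders (for the lines) or lines (for the genders), within-gender differences and the interaction came from this fit. Spread was tested on absolute deviations from the group median. Exons with at least 0.1 ppm in 12 libraries (148532) were tested with a pseudocount of 0.05 ppm, and exon usage with diffSplice over 14702 genes. A call is an adjusted p under 0.05.

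Correlations used log2 values less the group means, with 100000 permutations of mice within groups and adjustment over 45 member pairs or 100 marker pairs, two-sided (Python 3.11.15, numpy 2.4.6, scipy 1.17.1, pandas 2.3.3; figures with matplotlib 3.10.9). The names, strands and exon lengths came from a GRCm38 annotation, matched by ID and by exon spacing, with no conversion of coordinates; exon positions are those of the exon table on mm9. The programs were tested on simulated data with known changes.

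All 10 members are named, with the 5 genes nearest to each by r, up to 4 called genes or otherwise at most the 2 smallest p in each other list, the 2 smallest p among the exons of a gene, and alternative starts or ends of Gfap, Slc1a2 and Aqp4. Some genes that this rule would name are not reported here. The members and lists were chosen with earlier results of these data known. Replicate numbers are in accession order and pair no mice. Alternatives were other pseudocounts, filters and scalings, library weights, covariates, leaving out High M replicate 1 and a fit per gender.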

Additional observations from a re-analysis of the deposited data

How the results depend on the processing

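Between the lines 0 of the 10 members were called under each of the settings run, and all 10 log2 differences stayed above 0 in the 12 alternatives (other pseudocounts, filters and scalings, library weights, High M replicate 1 left out, and cortical, oligodendrocyte or last-exon covariates). That of S100b ran from 0.25 to 0.40 and that of Gjb6 from 0.14 to 0.17, with smallest adjusted p-values of 0.156 and 0.314. The number of members with an unadjusted p under 0.05 was 6 with the oligodendrocyte covariate, 4 with library weights, 2 after quantile normalisation and 2 without High M replicate 1, against 1 as reported. The share of all tested genes under that threshold was not computed for these settings. The median of all genes moved by less than 0.01 under each scaling. The number of all genes called between the lines, 43 as reported, was 25 with a filter of 5 ppm in 24 libraries, which tests fewer genes, 80 with library weights, 70 with the oligodendrocyte covariate and 77 with the last-exon share of each library as a covariate, which was added after the data were seen. Of the member pairs 2 passed in place of 16 with the first component removed, also added after the data were seen. Slc1a2 with Aldoc, 1 of the 2, was not among the 16. Of the marker pairs, 5 as reported, 3 passed after median-of-ratios scaling, 9 with group means kept and 3 without High M replicate 1. The cause of these changes was not tested. Of 206 alternative values over 21 results, the other 198 kept their direction and call or lay within 1.5 times the count. Limits: the deposited values carry an unknown normalisation and no raw depth, so counting error cannot be given. Exons upstream of the last one had few reads in most members, which leaves isoform differences weakly measured. No paired analysis was possible because the labels give no replicate numbers that mice of different groups share.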

Other observations

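The share of each library's value held by last exons, a measure of how far reads gather at the 3′ end, was set against each member over the 48 mice, with group means removed. It varied with Gjb6 by r (r = 0.42, permutation p = 0.00217, adjusted p = 0.0217 over 10 members, r without the 2 farthest mice 0.37). By rho this pair did not pass (rho = 0.38, permutation p = 0.0103, adjusted permutation p = 0.103). The share of all tested genes that would pass against this measure was not computed. Whether the result is particular to Gjb6 was not tested. Within groups r was 0.62 in High F, 0.58 in High M, 0.57 in Low F and 0.02 in Low M. No other member passed; Sox9 was next (r = 0.31, rho = 0.28, permutation p = 0.0355 and 0.068, adjusted p = 0.177). Among markers of other cell types, Sst, the somatostatin gene of interneurons, was lower in High mice (1772 ± 388) than in Low mice (2360 ± 542; log2 difference -0.40 ± 0.087, adjusted p = 0.0233 by limma), the only called gene of the 28 lists. Of 7 direct-pathway spiny neuron markers 7 lay above 0 and of 7 indirect-pathway markers 0 did, with 0 called in both; their part in the astrocyte results was not tested.

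A few sequences are shared between members and other genes. Of the 25-base words of the Aldh1l1 transcripts, 11.8% also occur in other genes, 10% in Gm15756, and of those of Sox9 3.24%, with Sox10 as the main partner at 0.949%. The share is 2.12% or less for the other 8 members and 0% for Gjb6.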
